A study of Mus musculus with 12 samples.

Results

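The difference between genotypes in the response to muscle injury was examined gene by gene as an interaction: the change from day 0 to day 7 in Sestrin1,2 knockout muscle stem cells minus the same change in wild-type cells, on a log2 scale. A positive interaction means a more positive response in knockout. Of 15672 genes tested, 3887 (24.8%) had an interaction that passed the test, here termed called (edgeR quasi-likelihood test, Benjamini-Hochberg adjusted p below 0.05). The response was more positive in knockout for 2012 genes (12.8%) and more negative for 1875 (12%). Each called gene was then placed in a class by whether the genotypes also differed at day 0, at day 7, on both days or on neither.

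The values come from 8 of the 12 RNA-seq libraries of the series, 2 for each genotype and day. Muscle stem cells were isolated by flow cytometry from tibialis anterior, gastrocnemius and quadriceps of C57BL/6J mice aged 2 to 3 months, either wild type or carrying a knockout of both Sestrin1 and Sestrin2. Day 0 stands for muscle before injury and day 7 for muscle 7 days after it. The labels name neither the kind of injury, the sex, the hour of collection nor a batch. They do not say that the libraries of a group came from separate animals, so p-values measure only the spread between these libraries, which may be technical.

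Sestrins are stress-induced proteins that restrain the growth kinase complex mTORC1 when amino acids are scarce, acting through the GATOR complexes, and they take part in antioxidant defence. Muscle stem cells rest outside the cell cycle in uninjured muscle. After injury they activate and divide, and their progeny either differentiate and fuse into fibres or return to rest.

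The targeted genes were read first. Sesn2 was at 78.3 and 88.6 CPM (counts relative to library size, scaled between libraries) in the 2 wild-type libraries and 5.66 and 7.26 in the 2 knockout libraries of day 0, and at 45.2 and 48.6 against 2.37 and 1.96 at day 7. Sesn1 was at 73.4 and 72.0 against 47.6 and 47.3 CPM at day 0 and at 84.5 and 69.5 against 28.6 and 23.0 at day 7. Both genes were lower in every knockout library than in every wild-type library of the same day, and Sesn1 kept the larger remaining share. Log2 differences were -3.70 ± 0.14 (SE) and -4.42 ± 0.16 for Sesn2 and -0.62 ± 0.12 and -1.58 ± 0.13 for Sesn1 at days 0 and 7, with adjusted p-values of 6.35e-06, 6.19e-06, 0.00468 and 0.000309. The Sesn1 interaction of -0.96 ± 0.17 (adjusted p = 0.00547) was not called with the day 21 libraries in the fit (0.137), and that of Sesn2 (adjusted p = 0.0353) lost its call under 9 of 16 alternatives, with adjusted p-values up to 0.826. Sesn3, the family member that was left intact, lay between 1.64 and 8.30 CPM and was not called on either day or in the interaction (adjusted p = 0.206).

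The label of the cells was compared with marker genes on the TPM scale, which takes transcript length into account. Pax7, the defining transcription factor of muscle stem cells, lay between 3.14 and 10.9 TPM and Myod1 between 79.7 and 132. The stem cell genes Vcam1 and Cdh15 lay between 50.6 and 171 TPM and between 29.9 and 164. The tendon genes Mkx (28.8 to 46.2), Kera (60.4 to 136) and Scx (40.5 to 163) lay in the same range, while Fmod, between 1221 and 2947, and Chad, between 388 and 1978, were above it, and the smooth muscle actin gene Acta2 lay between 1932 and 7072 TPM. Also high were Dcn, a marker of fibro-adipogenic progenitors (2388 to 5968), and the Schwann cell gene Pmp22 (427 to 1511). Other markers of these 2 cell types were lower, such as Pi16 (0.621 to 38.5) and S100b (7.50 to 60.0). The leukocyte gene Ptprc was at most 0.0422 TPM at day 0 and between 0.241 and 3.48 at day 7. Lyz2, the lysozyme gene of myeloid cells, went the other way, from between 2027 and 3508.5 TPM at day 0 to between 320.3 and 481 at day 7. The part of other cell types in the differences was not tested. In bulk RNA, fewer cells of a type and less RNA of a gene per cell cannot be told apart.

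Libraries held between 28396780 and 38950514 estimated counts, and 17292 to 18043 genes were detected in each. Pearson correlations of log2 CPM across genes were 0.972 to 0.983 within groups. Between genotypes they were 0.934 to 0.942 at day 0 and 0.967 to 0.972 at day 7, so that the genotypes were further apart before injury than after it.

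Most called interactions went with a difference that was present before injury. Of the 3887 genes, 2970 (76.4%) differed between genotypes at day 0 and were not called at day 7. In 264 genes (6.79%) the genotypes differed at day 7 alone, in 257 (6.61%) on both days in opposite directions, and in 96 (2.47%) on both days in the same direction by unequal amounts. The remaining 300 (7.72%) passed on neither day. The median absolute log2 difference in the day 0 class was 0.74 at day 0 and 0.15 at day 7, against 0.13 and 0.65 in the day 7 class. Genes of the opposite class had medians of 0.57 and 0.56, near the same on both days.

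These classes follow from the same fit as the interaction, so their sizes and medians are descriptions with no test. Over all genes tested, 38.9% were called between genotypes at day 0 and 7.46% at day 7, and the median absolute difference was 0.40 at day 0 and 0.21 at day 7. Between genotypes, libraries did not overlap for 75.2% of genes at day 0 and for 47.9% at day 7. A missed call does not show equal levels: in the day 0 class, 613 genes (20.6%) had an unadjusted day 7 p below 0.05 and 182 an adjusted p from 0.05 to 0.1. Just inside the interaction threshold lay Slc44a1 (-0.33, adjusted p = 0.0499) and Npffr1 (2.21, adjusted p = 0.0499), and just outside Nipsnap3b (0.41, adjusted p = 0.0501) and Sod2 (-0.51, adjusted p = 0.0501). Without knockout replicate 2, wild-type replicate 1 or wild-type replicate 2 of day 0, 2183, 2248 and 2278 genes were called. With the 4 day 21 libraries added to the fit, of which 2 had Sesn2 levels that went against their labels, 2141 genes were called, 1801 of them in the day 0 class and 63 in the day 7 class. Without wild-type replicate 1 of day 7 the day 7 class held 87 genes, and without knockout replicate 2 of day 7 it held 402.

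**Figure D1:**
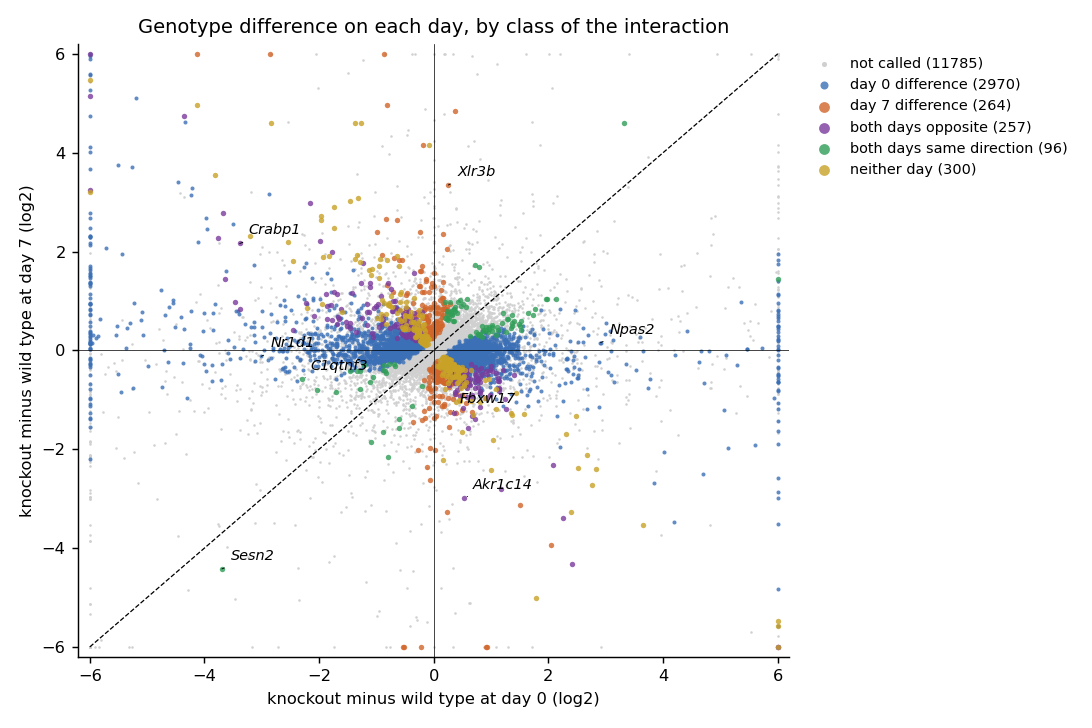
Each point is one of 15672 genes, with the difference between knockout and wild type at day 0 on the x axis and at day 7 on the y axis, both in log2; values beyond 6 are drawn at the edge. Colours mark the class of the interaction and the dashed line marks an equal difference on both days. The 2970 genes of the day 0 class spread along the x axis and the 264 of the day 7 class along the y axis.

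The shape of the response was read from the tests of day 7 against day 0 within each genotype. Of the called genes, 962 changed in wild type alone, 1112 in knockout alone and 365 in both in opposite directions. Another 891 changed the same way in both with the larger change in knockout, 517 the same way with the smaller change in knockout, and 40 passed in neither. In the day 7 class the most frequent shape was a change the same way that was smaller in knockout, with 109 of 264 genes.

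Direction went with transcript length. Among called genes, 85.7% were more positive in knockout among the shortest transcripts, 47.2% among those of middle length and 26% among the longest, with all genes ranked by length and cut into 3 parts of like size. The median day 0 difference of all genes in these parts was -0.18, 0.019 and 0.18, and the median interaction 0.24, -0.014 and -0.22. Across 15565 genes of known length, Spearman's rho with length was 0.25 for the day 0 difference and -0.27 for the interaction, but -0.080 for the day 7 difference. An offset for transcript length and GC content, chosen after seeing the data, left 3623 genes called. Of these, 2848 were shared with the counts as deposited, all with the same sign. Whether length itself has a part in any gene's difference was not tested.

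**Figure D2:**
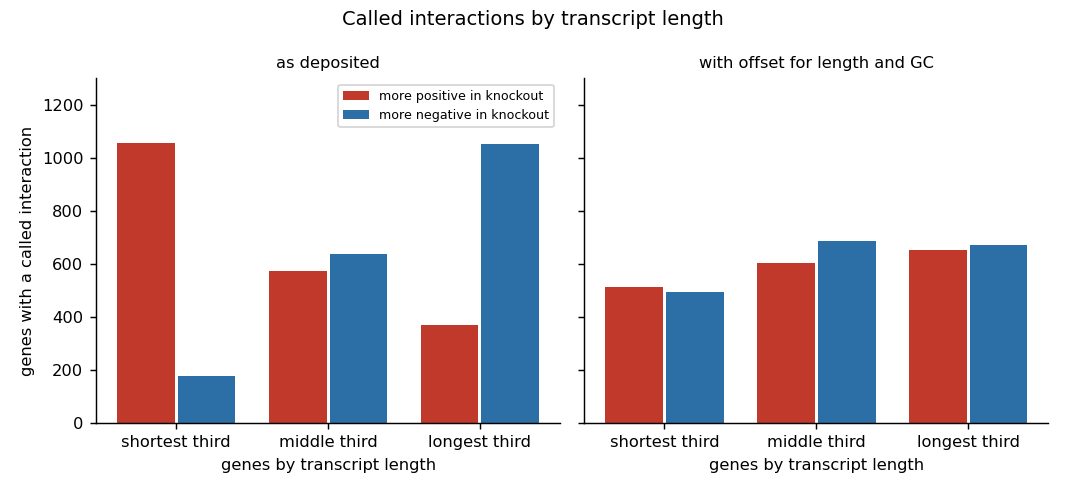
Bars count genes with a called interaction in each of 3 parts of like size by transcript length, split by direction; the left panel uses the counts as deposited and the right panel the offset for length and GC content. Among the shortest transcripts 1058 genes were more positive and 176 more negative as deposited, against 512 and 494 with the offset.

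In the class of day 0 differences, 1531 genes were more positive and 1439 more negative in knockout. Circadian clock genes stood at the head of both directions. Nr1d1 (ENSMUSG00000020889; GRCm38 chr11:98767932-98775333, minus strand) encodes the nuclear receptor REV-ERB alpha, which represses transcription in the clock. It was at 347 and 362 CPM in wild type against 43.4 and 44.7 in knockout at day 0, and at 152 and 148 against 136 and 140.1 at day 7. Wild type fell and knockout rose, so that genotypes far apart before injury lay close together after it. The interaction was 2.89 ± 0.084 (adjusted p = 2.07e-06), made of a difference of -3.01 at day 0 and -0.12 at day 7.

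Dbp (chr7:45705088-45710203, plus strand), a clock output transcription factor, was at 78.5 and 81.4 CPM against 3.96 and 4.45 at day 0, and at 8.91 and 6.62 against 9.14 and 6.88 at day 7, where the genotypes overlapped. Its interaction was 4.30 ± 0.26 (adjusted p = 6.35e-05). Npas2 (chr1:39193731-39363236, plus strand), which can take the place of CLOCK as the partner of BMAL1, showed the reverse: 3.32 and 2.55 CPM against 21.6 and 22.4 at day 0, and 17.8 and 18.4 against 20.9 and 19.5 at day 7. Wild type rose to a level at which knockout already stood, with an interaction of -2.75 ± 0.20 (adjusted p = 0.000145).

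Of 22 clock genes tested, 13 were called, 6 more positive and 7 more negative, beside 24.8% of all genes, and 12 of the 13 were in the day 0 class. At day 0, 8 of the 22 were lower in knockout, beside 19.4% of all genes, and 9 were higher, beside 19.5%; at day 7 none was called by the edgeR test, where 3 genes higher and 2 lower in knockout had an unadjusted p below 0.05. Called genes that were lower in knockout at day 0, beside Nr1d1 and Dbp, were the second REV-ERB gene Nr1d2 (-1.13 in log2), the repressor Ciart (-1.72), Tef (-0.47), a factor related to Dbp, and Per3 (-0.79). Those that were higher, beside Npas2, were Arntl (1.02), which encodes BMAL1, its partner Clock (0.65), Per2 (0.48), the repressor Nfil3 (0.30) and the kinase gene Csnk1d (0.29). Csnk1e had a called interaction (-0.35) and passed on neither day.

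The other 9 clock genes had no called interaction. Of these, Cry1 (0.44) and Cry2 (0.43) were higher in knockout at day 0, and Rora (-0.32) and Bhlhe40 (-0.16) lower. Per1 lay between 38.1 and 41.9 CPM in the 4 libraries of day 0, and Hlf and Bhlhe41 also passed on neither day. The number of called clock genes was 7 without knockout replicate 2 of day 0, 8 without wild-type replicate 1 of day 0, 7 without wild-type replicate 2 of day 7, 8 by limma on the batch-corrected values and 6 with the day 21 libraries in the fit. The calls of Nr1d1, Dbp, Npas2, Nr1d2, Ciart and Clock held under all 16 alternatives run. Of the others, Csnk1d lost its call under 10, Per2 under 8, Nfil3 and Csnk1e under 7, Tef and Per3 under 6 and Arntl under 2, and for each of these but Arntl single libraries left out were among them. The hour of collection is not in the labels, and it cannot be told apart from genotype and day.

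BMAL1 and its partners bind the E-box, CACGTG, which reads the same on both strands. RefSeq promoter windows (GRCm38, 250 bases before to 50 after the start) were found for 11 of the 13 called clock genes. The E-box was in 3 of their 18 windows (16.7%), against 7.15% of all 32851 windows. The window of Ciart, at chr3:95882179-95882478 on the minus strand, is shown because it held the letters 3 times; they are in capitals.
Ciart: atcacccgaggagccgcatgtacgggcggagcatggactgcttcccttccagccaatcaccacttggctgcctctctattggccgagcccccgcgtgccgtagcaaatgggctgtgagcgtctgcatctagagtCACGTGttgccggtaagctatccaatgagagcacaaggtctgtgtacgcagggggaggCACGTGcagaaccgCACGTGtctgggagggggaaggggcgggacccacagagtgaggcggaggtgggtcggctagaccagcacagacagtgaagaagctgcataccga

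Genes of mitosis were the next program of the day 0 class. Of 70 tested, 50 (71.4%) were called in the interaction, beside 24.8% of all genes, 47 more positive and 3 more negative, and 48 of the 50 were in the day 0 class. At day 0, 50 of the 70 were lower in knockout and 4 higher, beside 19.4% and 19.5% of all genes; at day 7, 1 was higher, beside 4.8% of all genes, and none lower (4 and 1 by unadjusted edgeR p below 0.05). Summed over the list, the level was 614 and 611 CPM in wild type against 384 and 379 in knockout at day 0, and 2909 and 2737 against 2838 and 2922 at day 7, where the genotypes overlapped. The median interaction was 1.78, or 1.71 with the 5 genes that had a group at 3 counts per library or fewer set to that floor, beside 0.027 over all genes; by limma on the batch-corrected values it was 0.96, with 38 called. With the offset for length and GC content 47 were called, 44 of them more positive, and with the day 21 libraries in the fit 28.

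Ccnb1, the cyclin that drives entry into mitosis, was at 12.3 and 14.3 CPM in wild type against 2.36 and 2.51 in knockout at day 0, and at 87.8 and 79.7 against 111 and 111 at day 7. It was lower in knockout before injury and higher after it, with an interaction of 2.86 ± 0.15 (adjusted p = 4.44e-05), and belongs to the opposite class. Cdca3, a factor for mitotic entry, was at 6.61 and 6.90 against 0.944 and 1.18 CPM at day 0 and between 38.9 and 43.2 in the 4 libraries of day 7. Anln, the actin-binding anillin of the cleavage furrow, was at 11.3 and 9.94 against 2.77 and 2.05 at day 0 and at 67.5 and 64.0 against 79.2 and 76.7 at day 7. Both differed at day 0 alone, and their interactions were 2.71 ± 0.19 and 2.37 ± 0.18 (adjusted p = 0.000102 and 0.000182).

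Promoters of mitosis genes are known for the CHR element (TTTGAA), through which the genes are kept silent in resting cells, and for the CCAAT box, bound by NF-Y. Windows were found for 40 of the 50 called mitosis genes, 41 in all, and searched on both strands; the elements can share an end letter. The CHR was in 29 windows (70.7%), against 17.9% of all windows, and CCAAT was in 29 (70.7%), against 37.4%. CCAAT was also in 55.6% of the windows of called clock genes and 58.1% of those of the called antioxidant genes described below. The CHR was in 0% and 9.68% of these windows. The windows of Cdca3, at chr6:124829926-124830225 on the plus strand, and Anln, at chr9:22389157-22389456 on the minus strand, are shown as those of genes described above that hold CHR letters, with CHR and CCAAT matches on either strand in capitals. A match is a description of letters, and no binding was measured.
Cdca3: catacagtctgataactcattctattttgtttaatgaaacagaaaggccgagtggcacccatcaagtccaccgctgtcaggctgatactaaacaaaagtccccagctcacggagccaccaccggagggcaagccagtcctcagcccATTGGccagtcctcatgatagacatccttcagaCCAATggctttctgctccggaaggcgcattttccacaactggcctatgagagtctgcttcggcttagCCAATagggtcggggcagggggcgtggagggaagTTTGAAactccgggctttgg
Anln: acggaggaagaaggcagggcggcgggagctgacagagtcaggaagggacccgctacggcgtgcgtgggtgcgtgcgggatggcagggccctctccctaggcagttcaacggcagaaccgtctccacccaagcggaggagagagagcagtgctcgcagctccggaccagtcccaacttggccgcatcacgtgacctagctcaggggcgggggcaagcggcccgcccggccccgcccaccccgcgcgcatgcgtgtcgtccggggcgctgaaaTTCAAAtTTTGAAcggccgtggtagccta

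Of 47 genes of DNA replication 17 (36.2%) were called, beside 24.8% of all genes, 12 more positive and 5 more negative, with 16 in the day 0 class. Rrm2, a subunit of ribonucleotide reductase, was at 41.6 and 37.4 CPM against 12.3 and 11.8 at day 0 and at 220.0 and 203 against 239.8 and 226 at day 7. Its interaction was 1.85 ± 0.12 (adjusted p = 6.35e-05), and that of the thymidine kinase gene Tk1 was 1.97 ± 0.20 (0.000537). Without wild-type replicate 2 of day 7, 11 of the 47 were called.

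Genes of cytosolic ribosomal proteins moved in 1 direction. Of 80 tested, 76 (95%) were called, beside 24.8% of all genes, all 76 more positive in knockout, beside 12.8%, and 74 of them in the day 0 class. At day 0, 79 of the 80 were lower in knockout, beside 19.4% of all genes. In wild type 14 rose and 7 fell from day 0 to day 7, beside 27.9% and 26.1% of all genes, while in knockout 76 rose and none fell, beside 27.6% and 26.6%. Rps20 was at 126 and 122 CPM against 54.7 and 46.1 at day 0 and at 116 and 118 against 104 and 105 at day 7, with an interaction of 1.14 ± 0.12 (adjusted p = 0.000596). The summed level was 15795 and 15414 CPM in wild type against 9146 and 8008 in knockout at day 0, and 15817 and 15183 against 13532 and 13928 at day 7. In sum, knockout was below wild type on both days, by more before injury. By gene, 2 of the 80 were called lower at day 7, near the 2.66% of all genes, and none higher. By unadjusted edgeR p below 0.05, 21 of the 80 were lower at day 7, beside 1446 of all 15672 genes. The transcripts are short, with a median of 692 bases, and many have near-identical processed copies among which reads may be split. With the offset for length and GC content 40 were called, all more positive. The median interaction of the list was 0.794, or 0.451 with the offset and 0.788 without wild-type replicate 2 of day 7.

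Other lists of short transcripts changed with the offset for length and GC content, which were not tested apart. Of 32 proteasome subunit genes 18 (56.2%) were called, beside 24.8% of all genes, all more positive; with the offset 8 were more positive and 2 more negative, and 10 to 11 were called without wild-type replicate 1, wild-type replicate 2 or knockout replicate 2 of day 0. Of 75 nuclear genes of the respiratory chain, 18 (24%) were called, near the 24.8% of all genes, 16 more positive and 2 more negative, but with the offset 2 and 10, and the number called ran from 3 to 39 when single libraries were left out. Of 79 mitochondrial ribosomal genes, 12 (15.2%) were called, a share below that of all genes, 11 more positive and 1 more negative, and with the offset 2 and 5; leaving out single libraries gave 1 to 12.

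Markers of the muscle stem cell were mostly lower in knockout before injury. Of 11 tested, 8 were lower and 1 higher at day 0, beside 19.4% and 19.5% of all genes, and 4 were lower and none higher at day 7, beside 2.66% and 4.8%. Vcam1, an adhesion molecule of these cells, was at 325 and 322 CPM against 147 and 139 at day 0 and at 403 and 361 against 380.2 and 404 at day 7. Cdh15, the muscle cadherin, was at 162 and 179 against 75.0 and 79.0 at day 0 and at 329.9 and 293 against 367 and 328 at day 7. For both, the genotypes were apart at day 0 and overlapped at day 7, and the interactions were 1.22 ± 0.099 and 1.30 ± 0.12 (adjusted p = 0.000236 and 0.000393).

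The lineage transcription factors differed from each other. Myf5 averaged 37.4 ± 0.732 CPM (SD, n = 2) in wild-type libraries against 19.3 ± 0.391 in knockout ones at day 0 and lay between 88.0 and 99.4 CPM at day 7 (interaction 0.92 ± 0.12, adjusted p = 0.00151). Pax7 was at 25.5 and 28.6 against 10.5 and 14.3 at day 0 and at 35.2 and 30.4 against 23.2 and 26.9 at day 7. Its interaction of 0.73 ± 0.23 (adjusted p = 0.0447) lost the call under 9 of 16 alternatives, among them each single library left out except knockout replicate 2 of day 0 and knockout replicate 1 of day 7, with adjusted p-values up to 0.249. Myod1, which commits cells to the muscle programme, was higher in knockout at day 0, at 161 and 179 CPM against 111 and 131. Its interaction of -0.63 ± 0.14 had an adjusted p of 0.0115, which became 0.0501 without knockout replicate 2 of day 0, 0.0547 without wild-type replicate 1 of day 7 and 0.257 with the day 21 libraries.

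Chrdl2, a secreted inhibitor of BMP signals, was lower in knockout on both days and belongs to the same-direction class, at 157 and 158 CPM against 77.1 and 70.6 at day 0 and 31.3 and 28.2 against 7.92 and 8.60 at day 7 (interaction -0.76 ± 0.12). Calcr, Cxcr4, Heyl, Sdc4 and Itga7 had no called interaction. Of these, Calcr (-0.90), Cxcr4 (-0.95) and Heyl (-0.21) were lower in knockout at day 0.

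Lrrc17 and Col1a1 were among the secreted and matrix genes that rose from a lower start in knockout. Lrrc17 (chr5:21543559-21575904, plus strand), a secreted leucine-rich repeat protein, was at 66.5 and 61.0 CPM against 14.2 and 15.7 at day 0 and between 244 and 261 in the 4 libraries of day 7. Its interaction was 2.08 ± 0.11 (adjusted p = 4.44e-05). Col1a1, a chain of type I collagen, was at 7242 and 7654 against 2309 and 2669 CPM at day 0 and 19765 and 21712 against 25304 and 24459 at day 7 (interaction 1.84 ± 0.11). Of 30 collagen genes, 13 (43.3%) were called, beside 24.8% of all genes, 10 more positive and 3 more negative, and 12 of the 13 were in the day 0 class; 6 were called with the day 21 libraries. At day 0, 13 of the 30 were lower in knockout and 10 higher, beside 19.4% and 19.5% of all genes. Timp1, an inhibitor of matrix proteases, followed the same course, with an interaction of 1.79 ± 0.15 (adjusted p = 0.000279). Of the 31 matrix proteases and inhibitors in its list, 12 were higher and 5 lower in knockout at day 0, beside 19.5% and 19.4%. A called interaction was found for 9 (29%), near the 24.8% of all genes, 5 more positive and 4 more negative.

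Sterol synthesis genes leaned the same way. Of 26 tested, 14 (53.8%) were called, beside 24.8% of all genes, 12 more positive and 2 more negative. At day 0, 13 were lower in knockout and 1 higher, beside 19.4% and 19.5% of all genes. Fdft1, the squalene synthase gene, was at 53.1 and 59.7 CPM against 27.7 and 25.2 at day 0 and at 9.61 and 11.0 against 14.8 and 11.3 at day 7, with an interaction of 1.43 ± 0.21 (adjusted p = 0.0021). The number called was 9 without knockout replicate 2 of day 0, wild-type replicate 1 of day 0, wild-type replicate 2 of day 0 or wild-type replicate 2 of day 7.

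The negative side of the day 0 class held genes that were higher in knockout before injury. Plxna1 (chr6:89316314-89362620, minus strand), a semaphorin receptor, was at 21.3 and 21.8 CPM in wild type against 47.0 and 52.9 in knockout at day 0, and at 63.8 and 65.6 against 50.0 and 53.3 at day 7. Wild type rose while the change in knockout did not pass, and the interaction was -1.54 ± 0.12 (adjusted p = 0.000229). Sptan1 (chr2:29965560-30031451, plus strand), the alpha chain of spectrin, was at 136 and 145 against 307 and 339 at day 0 and between 82.3 and 93.3 at day 7. It fell in both genotypes, by more in knockout (interaction -1.29 ± 0.11, adjusted p = 0.000262; -0.66 by limma on the batch-corrected values). Notch2, a receptor of the pathway that keeps these cells at rest, was at 27.1 and 26.7 against 60.2 and 61.5 at day 0 and between 16.9 and 21.9 at day 7 (interaction -1.33 ± 0.16). The list of 36 quiescence and Notch genes to which it belongs leaned the other way at day 0. In it, 16 were lower in knockout and 7 higher, beside 19.4% and 19.5% of all genes. Called interactions were more positive for 8 and more negative for 8, beside 12.8% and 12% of all genes.

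Adhesion and fatty acid oxidation lists shared this direction. Of 35 integrin and laminin genes, 19 (54.3%) were called, beside 24.8% of all genes, 15 more negative and 4 more positive, and 22 were higher in knockout at day 0 and 5 lower, beside 19.5% and 19.4%; 11 were called with the day 21 libraries. Itga8, an integrin alpha chain, was at 161 and 151 CPM against 276 and 293 at day 0 and at 107 and 108 against 119 and 117 at day 7. Of 32 fatty acid oxidation genes, 16 (50%) were called, also beside 24.8%, 12 more negative and 4 more positive. Cpt1a, which admits fatty acids to the mitochondrion, was at 65.0 and 70.8 against 175 and 181 at day 0 and between 87.5 and 105 at day 7, with an interaction of -1.30 ± 0.13 (adjusted p = 0.000411). The count of this list was not stable: it fell to 10 without knockout replicate 1, 8 without knockout replicate 2, 8 without wild-type replicate 1 and 9 without wild-type replicate 2 of day 0, to 9 without wild-type replicate 2 of day 7, and to 9 with the day 21 libraries.

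**Figure D3:**
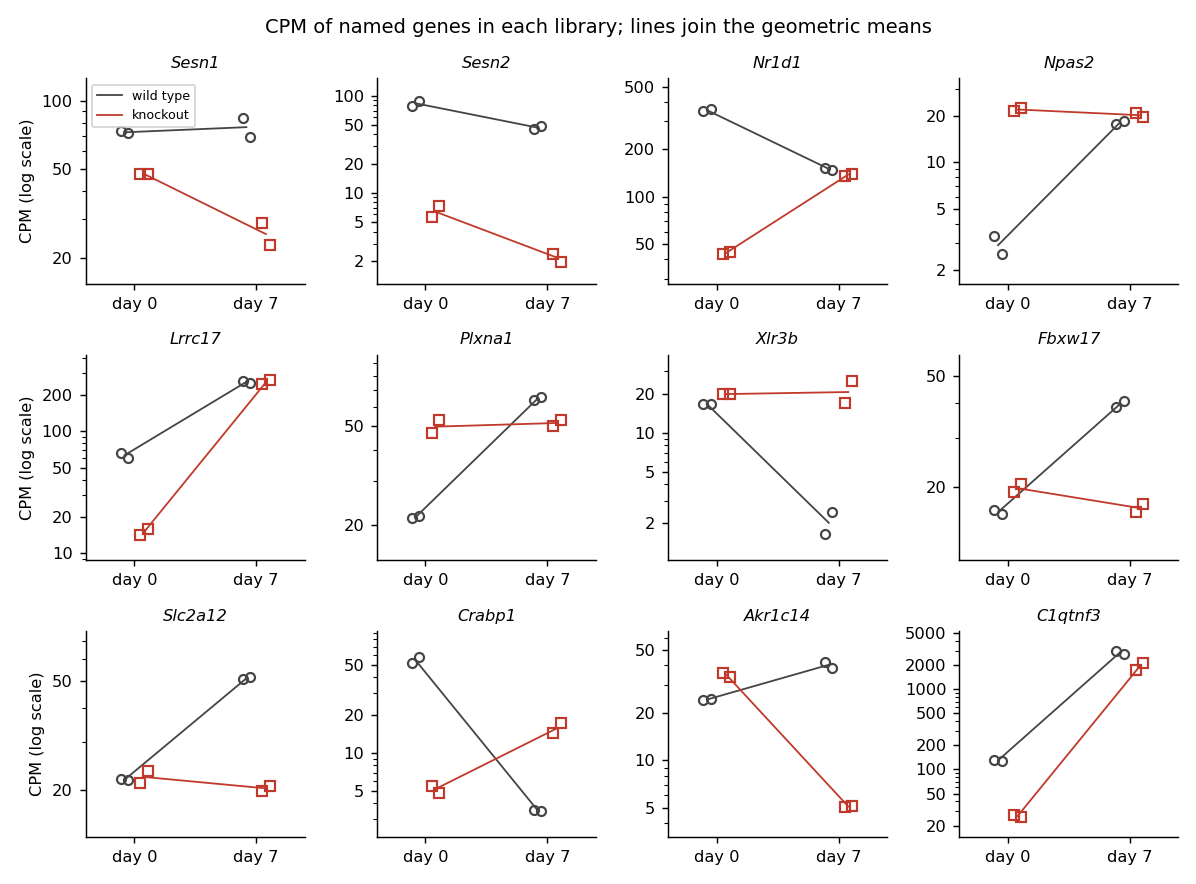
CPM on a log axis at day 0 and day 7 for 12 genes; circles are wild-type and squares knockout libraries, 2 each, and lines join the geometric means. Nr1d1, Npas2, Lrrc17 and Plxna1 are apart at day 0, Xlr3b, Fbxw17 and Slc2a12 at day 7, and the lines of Crabp1 and Akr1c14 cross.

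In the day 7 class, 151 genes were more positive and 113 more negative in knockout. Xlr3b (chrX:73192207-73202930, plus strand), an X-linked lymphocyte-regulated gene whose near-identical family members may share its reads, was at 16.6 and 16.8 CPM in wild type against 19.9 and 19.8 in knockout at day 0, and at 1.66 and 2.46 against 17.1 and 24.8 at day 7. It fell in wild type, and the change in knockout did not pass; the interaction was 3.09 ± 0.31 (adjusted p = 0.000478). Ccl8 (chr11:82115185-82116799, plus strand), a chemokine for monocytes, was under 1 CPM in all 4 libraries of day 0 and at 6.81 and 7.21 against 38.9 and 49.0 at day 7, so that it rose in both genotypes and by more in knockout (interaction 3.28 ± 0.42, adjusted p = 0.0012). Cotl1 (chr8:119809222-119840544, minus strand), an actin-binding protein, was between 38.1 and 43.6 at day 0 and fell to 9.49 and 10.0 against 26.0 and 21.8 (interaction 1.29 ± 0.17); it was not called with the day 21 libraries (adjusted p = 0.324).

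The 113 genes more negative in knockout in this class had several shapes: 31 changed in knockout alone, 29 in wild type alone, 27 the same way by less in knockout, 13 the same way by more, 11 in opposite directions, and 2 passed in neither. Slc2a12 (chr10:22645011-22704285, plus strand), a glucose transporter, was between 21.3 and 23.5 CPM at day 0 and at 50.6 and 51.5 against 19.9 and 20.8 at day 7, having risen in wild type alone (interaction -1.36 ± 0.13, adjusted p = 0.000412). Fbxw17 (chr13:50417864-50433780, plus strand), an F-box protein, had the same shape, at 16.5 and 15.9 against 19.1 and 20.3 and then 38.6 and 40.5 against 16.2 and 17.3 (interaction -1.53 ± 0.14). Iqgap2 (chr13:95627177-95891922, minus strand), a scaffold of the cytoskeleton, was between 61.3 and 65.1 at day 0 and fell to 44.0 and 44.2 against 22.0 and 20.8 (interaction -1.11 ± 0.11, adjusted p = 0.000403).

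Retinoid genes took part in this class. Vitamin A is taken up, oxidised to retinoic acid, bound to nuclear receptors and degraded by proteins of this list. Of 21 tested, 9 (42.9%) were called, beside 24.8% of all genes, all 9 more positive in knockout, beside 12.8%, and 4 of them in the day 7 class. At day 7, 8 were higher in knockout, beside 4.8% of all genes, and none lower. Stra6, the cellular receptor for retinol carried in blood, was between 32.5 and 34.4 CPM at day 0 and at 2.00 and 2.33 against 5.78 and 4.72 at day 7 (interaction 1.34 ± 0.20, adjusted p = 0.0023; 0.77 by limma on the batch-corrected values). Cyp26a1, which degrades retinoic acid, was between 15.9 and 20.8 at day 0 and at 1.44 and 1.19 against 4.44 and 9.13 at day 7. Both fell in both genotypes and by less in knockout; the Cyp26a1 interaction was 2.19, or 1.399 by limma on the batch-corrected values.

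Rdh10, which makes retinal from retinol, was between 56.8 and 66.5 CPM at day 0 and at 50.6 and 46.9 against 71.3 and 76.0 at day 7 (interaction 0.70 ± 0.12). The receptor gene Rarb went from between 11.2 and 18.4 to 2.26 and 2.70 against 7.27 and 7.37; its interaction of 1.56 ± 0.35 (adjusted p = 0.0129) had adjusted p-values of 0.0597 without knockout replicate 2 of day 0 and 0.0535 without wild-type replicate 1 of day 7. The dehydrogenase gene Rdh5 and the receptor gene Rarg were in the day 0 class, with interactions of 0.79 (0.47 with the offset) and 0.88. Dhrs3, a retinal reductase, was higher in knockout on both days (0.51 and 0.93), and its interaction lost the call under 9 of 16 alternatives, 6 of them with 1 library left out, with adjusted p-values up to 0.383. The other 12 genes had no called interaction: Rxra, Rarres1, Rbp4, Crabp2, Rara, Aldh1a3, Rxrb, Aldh1a1, Rarres2, Rxrg, Lrat and Aldh1a2. Of these, Rxra was called, more negative, under 7 alternatives (-0.51 with DESeq2, adjusted p = 0.0403), Rarres1, more positive, under 3, and Aldh1a3, Rxrb and Rxrg under 1 each. With the offset 8 genes were more positive and 1 more negative.

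Crabp1 (chr9:54764748-54773110, plus strand), which binds retinoic acid in the cytoplasm, led the class of opposite differences, in which 142 genes were more positive and 115 more negative. It was at 51.6 and 57.4 CPM in wild type against 5.54 and 4.87 in knockout at day 0, and at 3.56 and 3.50 against 14.4 and 17.3 at day 7. It fell in wild type and rose in knockout, for an interaction of 5.55 ± 0.20 (adjusted p = 7.8e-06). Spp1 (chr5:104435118-104441050, plus strand), the secreted protein osteopontin, was at 74.7 and 77.9 against 42.1 and 38.8 at day 0 and 154 and 145 against 321 and 326 at day 7 (interaction 2.03 ± 0.096). Chrna1 (chr2:73563215-73580338, minus strand), the alpha subunit of the muscle acetylcholine receptor, was at 76.2 and 72.0 against 25.2 and 25.9 and then 270.4 and 283 against 393 and 435 (interaction 2.12 ± 0.10). Both rose in both genotypes, from below wild type to above it in knockout.

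Akr1c14 (chr13:4049011-4090688, plus strand), a hydroxysteroid dehydrogenase whose family members are close copies, was the leading negative gene of the class. It was at 24.1 and 24.4 CPM against 35.8 and 33.9 at day 0 and at 42.2 and 38.5 against 5.10 and 5.11 at day 7, a rise in wild type and a fall in knockout (interaction -3.50 ± 0.14, adjusted p = 1.27e-05). Aff3 (chr1:38177326-38664955, minus strand), a nuclear protein of transcription elongation, was at 36.1 and 44.5 against 94.4 and 98.8 and then 52.3 and 50.8 against 22.2 and 22.9 (interaction -2.45 ± 0.15). Abca8a (chr11:110025634-110095978, minus strand), a lipid transporter, fell in both genotypes, from 233 and 231 against 503 and 519 to 101 and 92.3 against 57.8 and 55.0 (interaction -1.91 ± 0.091).

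Genes of muscle differentiation took part in the opposite class. Of 34 genes of myogenic commitment and fusion, 22 (64.7%) were called, beside 24.8% of all genes, 19 more positive and 3 more negative, 10 in the day 0 class and 8 in the opposite class. At day 0, 17 were lower in knockout and 6 higher, beside 19.4% and 19.5% of all genes. At day 7, 13 were higher and 1 lower, beside 4.8% and 2.66%. The summed level, to which abundant genes contribute most, went the other way at day 0. It was 1954 and 2034 CPM in wild type against 2137 and 2255 in knockout at day 0, and 5032 and 5462 against 6846 and 6136 at day 7. Tnnt2, a troponin of developing muscle, was at 6.65 and 7.42 CPM against 2.01 and 1.86 at day 0 and at 121 and 124 against 182 and 199 at day 7 (interaction 2.49 ± 0.14, adjusted p = 6.35e-05). With the day 21 libraries in the fit 9 of the 34 were called. Of 33 genes of the mature sarcomere, which mark fibres, 12 (36.4%) were called, beside 24.8% of all genes, 11 more positive, and 6 without knockout replicate 1 or without wild-type replicate 2 of day 0. Actn3, an alpha-actinin of fast fibres, was at 58.2 and 59.1 against 27.4 and 29.4 at day 0 and 203 and 253 against 486 and 335 at day 7.

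Antioxidant genes controlled by NRF2 were called in 1 direction. Of 42 tested, 24 (57.1%) were called, beside 24.8% of all genes, all 24 more positive in knockout, 16 in the day 0 class and 6 in the opposite class. At day 0, 24 were lower in knockout and 1 higher, beside 19.4% and 19.5% of all genes, and at day 7, 9 were higher and none lower, beside 4.8% and 2.66%. Hmox1, heme oxygenase 1, was at 324 and 335 CPM against 166 and 169 at day 0 and at 139 and 147 against 256 and 291 at day 7, a fall in wild type and a rise in knockout (interaction 1.91 ± 0.10, adjusted p = 4.44e-05). Nfe2l2, which encodes NRF2, was at 341 and 358 against 259.7 and 277 and then 203 and 202 against 259.9 and 266 (interaction 0.76 ± 0.083). With the day 21 libraries 12 of the list were called, and Hmox1 and Nfe2l2 were not (adjusted p = 0.179 and 0.123). Promoter windows were found for 21 of the called genes, 31 in all. The antioxidant response element, searched as TGACNNNGC on both strands, was in 7 of them (22.6%), against 12.4% of all windows. It was also in 22% of the windows of called mitosis genes and in 16.7% of those of called clock genes.

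Most called genes of the amino acid response and chemokine lists were in the day 0 or the opposite class. Of 35 genes of ATF4 and the amino acid response, 14 were more positive and 3 more negative, beside 12.8% and 12% of all genes, 9 in the day 0 class and 6 in the opposite class. Asns, asparagine synthetase, was at 23.0 and 22.3 CPM against 15.4 and 14.3 at day 0 and at 20.4 and 22.3 against 37.5 and 37.8 at day 7, rising in knockout alone (interaction 1.42 ± 0.14, adjusted p = 0.000481). Pycr1, of proline synthesis, and the glutamine transporter gene Slc38a1 differed at day 0 alone, with interactions of 2.17 ± 0.19 and 2.18 ± 0.19. Of 35 NF-kB targets and chemokines, 16 were more positive and 1 more negative, beside the same shares. Of the 17 called, 8 were in the day 0 class and 4 in the opposite class. Another 2 were in the same-direction class, 1 was in the day 7 class and 2 passed on neither day. With the day 21 libraries 10 in all were called. Ccl2, a chemokine for monocytes, was at 53.9 and 50.4 against 16.8 and 13.7 at day 0 and 38.8 and 44.9 against 63.8 and 64.3 at day 7 (interaction 2.38 ± 0.16).

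Genes of the pathway in which sestrins act did not lean one way. Of 39 genes of mTORC1 and GATOR signalling, 15 (38.5%) were called, beside 24.8% of all genes, 7 more positive and 8 more negative, 12 of them in the day 0 class; 9 were called without knockout replicate 2 of day 0. Rragd, a Rag GTPase that brings mTORC1 to the lysosome, was at 25.2 and 23.3 CPM against 43.0 and 41.6 at day 0 and at 36.6 and 31.8 against 23.1 and 21.0 at day 7. It rose in wild type and fell in knockout (interaction -1.43 ± 0.15, adjusted p = 0.000609), and was not called in a limma test of the authors' batch-corrected values (adjusted p = 0.292). Eif4ebp1, a translation repressor that mTORC1 phosphorylates, was in the day 0 class (0.76 ± 0.12). Of 41 genes of autophagy and the lysosome, 13 were more positive and 7 more negative, beside 12.8% and 12% of all genes, and 13 in all were called without knockout replicate 2 of day 0 or wild-type replicate 2 of day 7, and 11 with the day 21 libraries.

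In the class of unequal differences in 1 direction, 46 genes were more positive and 50 more negative. C1qtnf3 (chr15:10952332-10980150, plus strand), a secreted C1q-related protein, was at 133 and 127 CPM against 26.8 and 25.7 at day 0 and at 2949.5 and 2775 against 1718 and 2116 at day 7. It was lower in knockout on both days, by less at day 7 (interaction 1.73 ± 0.13, adjusted p = 0.000204). Cxcl10 (chr5:92346638-92348889, minus strand), an interferon-induced chemokine, had the same course (interaction 1.04 ± 0.10), and Cd151 (chr7:141467392-141471473, plus strand), a tetraspanin that binds integrins, was higher in knockout on both days and by more at day 7 (1.00 ± 0.21). Neither of these was called with the day 21 libraries (adjusted p = 0.254 and 0.103).

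Angptl4 (chr17:33773750-33781830, minus strand), an inhibitor of lipoprotein lipase, was higher in knockout on both days, at 62.0 and 59.3 CPM against 196 and 205 and then 187 and 173 against 289 and 303. The difference was smaller at day 7, and the interaction was -1.01 ± 0.094 (adjusted p = 0.000378). Ppp1r12b (chr1:134754658-134955942, minus strand), a myosin phosphatase subunit, and Myom1 (chr17:71002633-71126856, plus strand), a protein of the sarcomere's M band, were also higher on both days and by less at day 7, with interactions of -1.12 ± 0.13 (adjusted p = 0.000938) for Ppp1r12b and an adjusted p of 0.00122 for Myom1.

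The 300 genes that passed on neither day comprised 142 more positive and 158 more negative. Mycbpap (chr11:94501347-94521742, minus strand), a MYC-binding-protein partner, lay between 0.132 and 1.11 CPM in all 8 libraries. Its interaction of 4.21 ± 0.92 (adjusted p = 0.0119) was lost without knockout replicate 1 of day 0 (0.0504), without wild-type replicate 1 of day 0 (0.0502) and by limma on the authors' batch-corrected values, where it was 0.32 (0.21). Ptges (chr2:30889471-30929863, minus strand), a prostaglandin E synthase, was at 17.4 and 17.4 against 13.9 and 12.5 at day 0 and at 9.70 and 7.34 against 12.1 and 15.0 at day 7 (interaction 1.07 ± 0.25). Spint2 (chr7:29256323-29281912, minus strand), a protease inhibitor, had an interaction of 1.14 ± 0.27.

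Tmem8b (chr4:43668971-43692668, plus strand), a membrane protein, was at 7.69 and 5.95 CPM against 9.38 and 10.2 at day 0 and at 10.5 and 9.19 against 5.91 and 6.38 at day 7 (interaction -1.21 ± 0.26). Mcts2 (chr2:152687035-152687946, plus strand), a retrocopy of Mcts1 whose reads may be shared, and Sfmbt1 (chr14:30714849-30822721, plus strand), a Polycomb-related protein, had interactions of -1.26 ± 0.28 (-0.80 by limma on the batch-corrected values) and -1.06 ± 0.24. Each of the 6 genes lost its call under at least 2 of the alternatives run. The libraries left out in those cases were wild-type replicate 1, wild-type replicate 2 and knockout replicate 2 of day 0 for Ptges, wild-type replicate 1 and knockout replicate 1 of day 0 for Spint2, wild-type replicate 2 of day 0 and wild-type replicate 1 of day 7 for Mcts2, and wild-type replicate 2 and knockout replicate 2 of day 0 for Sfmbt1.

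**Figure D4:**
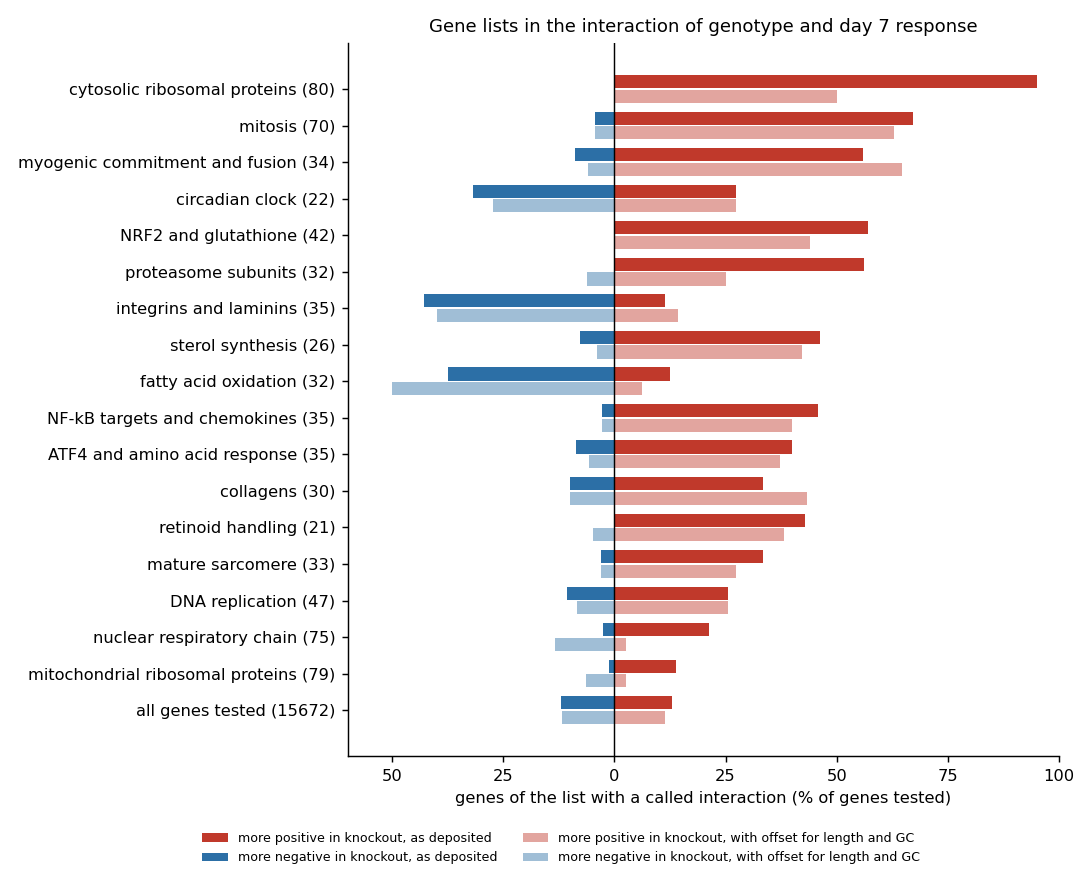
Bars give, for each gene list with its number of tested genes, the percentage with a called interaction, more positive in knockout to the right and more negative to the left; dark bars are the counts as deposited and pale bars the fit with the offset for length and GC content. All 76 called ribosomal genes lie to the right, and the respiratory chain turns from mostly right (16 against 2) to mostly left (2 against 10) with the offset.

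The offset moved the number called in all by less than 1.5 times in the following lists. In each, most called genes kept the same direction. NRF2 genes went from 24 of 42 to 18 of 41 called, all more positive, and their median interaction from 0.52 to 0.32. Fatty acid oxidation genes went to 2 more positive and 16 more negative, collagens to 13 and 3, and genes of myogenic commitment and fusion to 22 and 2. Sterol synthesis genes went to 11 and 1, mature sarcomere genes to 9 and 1, and Schwann cell and nerve genes to 1 and 3.

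Markers of other cell types were measured beside these programs. Of 10 tendon cell genes, 8 (80%) were called, beside 24.8% of all genes, 7 more positive and 1 more negative, and 2 with the day 21 libraries. Scx, a tendon transcription factor, was at 88.8 and 109 CPM against 26.0 and 25.8 at day 0 and at 83.5 and 73.6 against 62.2 and 68.2 at day 7 (interaction 1.66 ± 0.16, adjusted p = 0.000403). Chad, Kera, Cilp2, Mkx, Tnmd and Fmod were more positive and Egr1 more negative, while Comp and Thbs4 were not called; Fmod lost its call under 10 of 16 alternatives, 6 of them with 1 library left out. At day 0, 6 of the 10 were lower in knockout and 2 higher, beside 19.4% and 19.5% of all genes. The median day 0 difference was -0.51. The summed level, to which abundant genes contribute most, was 18100 and 18803 CPM in wild type against 18345 and 18536 in knockout at day 0, where the genotypes overlapped, and 10806 and 10438 against 11099 and 12441 at day 7. Its part in the results was not tested.

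Smooth muscle and pericyte genes were higher in knockout in sum on both days, at 15681 and 15891 CPM against 22338 and 22297 at day 0 and 5591 and 5811 against 8900 and 8546 at day 7. Of 13, 7 (53.8%) were called, beside 24.8% of all genes, 3 more positive and 4 more negative, but none with the day 21 libraries, 3 with the offset, 3 without knockout replicate 2 or wild-type replicate 1 of day 0, and 4 without wild-type replicate 2 of day 0 or either wild-type library of day 7. Of 15 genes of fibro-adipogenic progenitors 6 (40%) were called, all more positive, and 3 with the day 21 libraries. Their sum was 16006 and 16397 CPM in wild type against 15059 and 15659 in knockout at day 0, and 5869 and 5811 against 6406 and 7394 at day 7, lower in knockout before injury and higher after it. Of 12 Schwann cell and nerve genes 5 (41.7%) were called, 1 more positive and 4 more negative. Of 17 macrophage and leukocyte genes 3 (17.6%) were called, or 0 to 5 with single libraries left out. Their sum, nearly all of it Lyz2 at day 0, was 1851 and 1896 CPM in wild type against 3043 and 2998.5 in knockout at day 0, and 354 and 521 against 522 and 319 at day 7, where the genotypes overlapped. Of 15 endothelial genes 1 (6.67%) was called, and both shares are below the 24.8% of all genes. The endothelial gene was Kdr, which lost its call under 9 of 16 alternatives.

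Skin and blood markers were present in wild type at day 0 above all. Krt17, a keratin of hair follicles, was at 98.9 and 111 CPM in wild type and had 0 counts in both knockout libraries at day 0, and was under 1 CPM in all libraries of day 7. Of 23 skin and sebaceous gland genes, 18 were lower in knockout at day 0, beside 19.4% of all genes, and 9 (39.1%) had a called interaction, beside 24.8%, all more positive and all in the day 0 class (15 by limma on the batch-corrected values). Their summed level was 606 and 625 CPM in wild type against 191 and 199 in knockout at day 0, and 191 and 207 against 159 and 163 at day 7. Of 9 red blood cell genes 7 were lower in knockout at day 0, beside 19.4% of all genes. None had a called interaction by the edgeR test, and 2 had an unadjusted p below 0.05. DESeq2 called 3 and limma on the batch-corrected values 4, and 5 were called without knockout replicate 1 of day 7. Their sums were 948 and 961 CPM against 238 and 221 at day 0, and 189 and 254 against 82.6 and 194 at day 7. These levels moved with the same day 0 contrast as the day 0 class, and their part in it was not tested.

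**Figure D5:**
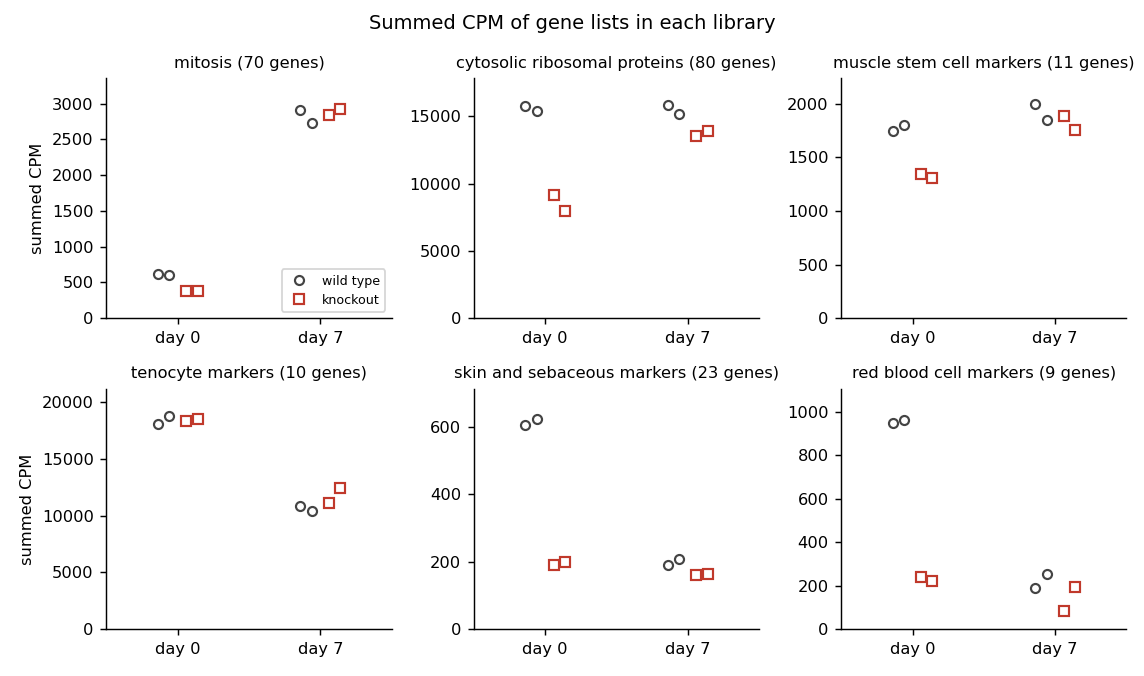
Summed CPM of 6 gene lists in each library at day 0 and day 7; circles are wild-type and squares knockout libraries, and each axis starts at 0. Mitosis, ribosomal, skin and red blood cell sums are apart between genotypes at day 0, and those of tendon cell genes overlap at day 0.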

How the data were processed

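RNA was sequenced from 12 libraries of sorted muscle stem cells, prepared with SMART-Seq v4 and Nextera XT per the labels' protocols; the 8 libraries of days 0 and 7 were tested. The deposited table of estimated counts per gene was made by the authors with kallisto 0.46.1, per the submitters' processing notes, which name the builds mm10 and GRCm38.p6 in no stated role. The authors also deposited TPM, used here to compare levels between genes, and a table of batch-corrected log2 values whose batch is not named, used as an alternative. Strand and filters are not given in the sources used here. The members and gene lists were chosen with earlier results of these data known.

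Estimated counts of 30154 genes were rounded to whole numbers, filtered with filterByExpr and scaled by TMM (factors 0.926 to 1.066). One mean per group was fitted with edgeR 4.0.16 (robust quasi-likelihood F test, R 4.3.3) with 4 residual degrees of freedom. Contrasts were the interaction, the genotypes on each day and the days within each genotype, with Benjamini-Hochberg adjustment over 15672 genes and a threshold of 0.05. CPM are TMM-scaled, and log2 CPM use a prior count of 2. The script was tested on simulated data. In each class and direction, the 3 genes of smallest adjusted p with an absolute log2 interaction of at least 1 and no overlap of genotypes on the days that define the class were named, passing over unnamed gene models, besides the sestrins and up to 3 called genes per list, or all members of 4 lists. Some genes that this rule names are not reported here. Of 1245 entries in 37 lists, 1230 matched by symbol, 10 by an older symbol and 5 did not. Replicates differed by more than sampling noise, with a mean chi-square per gene of 9.75 to 29.5 among genes above a minimum count. For these genes as a set, counting error is small beside that spread. The mean does not show this for genes of few counts. Gene positions are from GENCODE on GRCm38 and promoter windows from RefSeq on GRCm38.

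Alternatives were DESeq2 1.42.0, median-of-ratios size factors, no filter, at least 10 counts in every library, all 12 libraries, a replicate block, a fold threshold, limma 3.58.1 on the batch-corrected log2 values, classes by size and each library left out, and, added after seeing the data, the offset for length and GC content. Figures were drawn with Python 3.11.15 and matplotlib 3.10.9.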

Additional observations from a re-analysis of the deposited data

Results flagged for a closer look

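The response to injury differed between genotypes, by the test of the interaction term itself, for 3887 genes. The leading gene of each class and direction is given as its log2 interaction. Among genes apart at day 0 these were Nr1d1 (2.89) and Npas2 (-2.75), and among genes apart at day 7 Xlr3b (3.09) and Fbxw17 (-1.53). Opposite differences were led by Crabp1 (5.55) and Akr1c14 (-3.50), and unequal differences in 1 direction by C1qtnf3 (1.73) and Angptl4 (-1.01). Genes that passed on neither day were led by Mycbpap (4.21, but 0.32 by limma on the batch-corrected values) and Tmem8b (-1.21). In the day 21 libraries, which enter no comparison here, Sesn2 was at 108 CPM in the library labelled knockout replicate 2, while it was at 9.86 in the library labelled knockout replicate 1, 8.92 in the library labelled wild-type replicate 1 and 82.1 in that labelled wild-type replicate 2.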

How the results depend on the processing

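The number of called interactions was 4035 with DESeq2 (3687 shared with the edgeR test), 3869 with median-of-ratios size factors, 3827 with no filter, 3834 with at least 10 counts in every library, 3136 with limma on the batch-corrected log2 values and 3623 with the offset. All 12 libraries in the fit gave 2141 (966 more positive, 1175 more negative), 280 genes between genotypes at day 7, and 1801, 63, 62 and 8 genes in the day 0, day 7, opposite and same-direction classes. Calls restricted to absolute log2 values of 1 or more numbered 1488 (816 and 672), 1704 between genotypes at day 0 and 211 at day 7, 3799 in the wild-type and 3848 in the knockout response, and 922, 82, 26, 3 and 455 genes in the classes, ending with neither day. The batch-corrected values gave 149 opposite and 60 same-direction genes, DESeq2 146 same-direction genes, and classes drawn by size of the differences 903 opposite and 22 same-direction genes. With single libraries left out, the ranges were 2183 to 4404 for the interaction (1143 to 2143 more positive, 1019 to 2261 more negative), 3522 to 6916 and 406 to 1792 between genotypes at day 0 and day 7, 6573 to 9144 and 6868 to 8369 for the wild-type and knockout response, and 1608 to 3375, 87 to 402, 95 to 358, 35 to 186 and 180 to 315 for the day 0, day 7, opposite, same-direction and neither classes. The interaction count moved by over 1.5 times without knockout replicate 2 (2183), wild-type replicate 1 (2248) or wild-type replicate 2 (2278) of day 0. Replicate numbers are shared between groups but did not pair the libraries (correlations of replicate differences from -0.151 to 0.040); a replicate block gave 3341 genes, 3267 of them shared. Of 2889 values of 181 named genes under the alternatives, 2648 kept their side of the threshold, 217 lost the call and 24 gained it; no value that was called with or without the alternative changed sign, while values of uncalled genes such as Lrat and Per1 did, and 483 of 629 list counts stayed within 1.5 times. The cause of these shifts was not tested. With 2 libraries a group and 4 residual degrees of freedom, small differences at day 7 may go uncalled, which bears on the split between classes.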
